A study of Homo sapiens with 23 samples.

Results

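Regions of chromatin recovered with the V5 antibody in 3 or more of 5 MCF10A lines were examined, to ask what kind of sequence these shared regions hold and whether they carry the site to which p53 binds. MCF10A is a non-tumorigenic human mammary epithelial cell line. The 5 lines were made to express p53 with a V5 tag at its carboxyl end. They are Y220C and Y234C (missense mutants grouped as structural), R273C and R273H (mutants of a residue that touches DNA) and WTOE (wild-type p53, overexpressed). All were stable lentiviral lines of growing, unstimulated cells. By western blot the authors found raised p53 protein in their mutant lines, with Y234C as the exception. The mutants came from the vector pLenti4/V5-DEST and WTOE from pLX304, and so a mutant differs from WTOE in both mutation and vector, which cannot be told apart. For each line there was 1 peak list from 1 V5 ChIP library, called against input DNA of the same line, and no replicate. The V5 ChIP of parental WT cells, which carry no tagged p53, was not analysed here, so the level of background in these pull-downs has no measure of its own.

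The members were chosen by the lists themselves. Distinct regions of all 5 lists on chromosomes 1 to 22 and X (hg38) were merged where they overlapped by at least 1 bp, and merged regions found in 3 or more lists were kept. Of 32490 merged regions, 404 (1.24%) met this rule: 62 were held by all 5 lists, 144 by 4 and 198 by 3. Another 762 were held by 2 lists and 31324 by 1. Which lists hold a region, and how high it stands in them, is therefore a description of the choice and was not tested. Sequence, position and RNA were not used in the choice, but copies of 1 repeat are not independent regions, so these too are given as counts and shares beside those of regions in fewer lists.

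p53 is a transcription factor that binds DNA as a tetramer. Its site is made of 2 decamers, each with a purine-rich start, a central CATG-like core and a pyrimidine-rich end, separated by few or no bases. After damage p53 acts through such sites on genes for cell cycle arrest (CDKN1A), its own degradation (MDM2), DNA repair (DDB2) and apoptosis (BBC3, FAS). Residue R273 lies at the DNA surface of the protein, whereas Y220 and Y234 lie in its folded core. Tandem arrays, in contrast, are stretches in which 1 unit is repeated head to tail, among them the rRNA genes, the U2 snRNA genes, the D4Z4 arrays that hold DUX4-like genes, and the satellites around centromeres. Short reads from one copy of such a unit can align equally well to the others.

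A single shared region, chr1:181134774-181135439, carried a complete p53 site without mismatch within 150 bp of its strongest summit. It was intergenic, at -39367 bp (upstream) from the nearest start, that of LINC01732, and its summit sequence occurred once in the genome. It is shown first because it is the one member that meets the letter of the p53 site. The site ran from 181135142 to 181135161 with a spacer of 0 bases, and its decamers are in capitals in the reference sequence (hg38, plus strand, chr1:181135082-181135221).
Member with the full p53 site: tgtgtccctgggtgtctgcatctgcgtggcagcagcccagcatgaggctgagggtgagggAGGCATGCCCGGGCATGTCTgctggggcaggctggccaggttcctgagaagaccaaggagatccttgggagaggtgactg

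The fold enrichment of this region over input was 5.70 in R273C, 13.2 in R273H, 6.24 in Y234C and 7.86 in WTOE, with -log10 q of 9.07, 21.5, 13.03 and 21.6 in the same order. All 4 lists stood well above their own medians over the shared regions. It was not in the Y220C list. The nearest summit lay 6 bp from the middle of the site in WTOE, 28 bp in Y234C, 35 bp in R273H and 79 bp in R273C. Thus the mutant lists as well as WTOE placed their summit on or beside the paired decamers here. Full sites without mismatch were rare in the whole series, with 13 among 32490 regions. This strict search leaves out p53 sites with a mismatched decamer. The other 12 were each in 1 list, namely 8 of 9236 regions held by WTOE alone (0.0866%) and 4 of 20585 held by R273H alone (0.0194%). One of those held by WTOE alone lies at the promoter of DDB2.

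No shared region lay at the promoter or in the body of any of 45 established p53 target genes, among them CDKN1A, MDM2, BAX, BBC3 and FAS. Such regions were also rare in single lists (23 of 31324, or 0.0734%), so that nothing about the shared regions is read from the 0 of 404. The nearest cases fell just short of the rule, with 2 lists each. The CDKN1A promoter region (chr6:36676237-36676584; CDKN1A encodes p21, which blocks the cell cycle) had a fold enrichment of 7.23 in R273H and 6.15 in WTOE. The PHLDA3 promoter region (chr1:201468675-201469348; PHLDA3 restrains AKT) had 3.75 in Y234C and 2.56 in WTOE. The 23 regions of a single list lay at 15 target genes, CDKN1A again among them. The sequence of the CDKN1A region is given for comparison, with its decamers in capitals (hg38, plus strand, chr6:36676348-36676508). It holds 2 decamers without mismatch, too far apart to count as a full site by the rule used here. The bases right after the last of them, caacatgttg, differ from the decamer form only at their first and last base. The search did not count such a pair, so the region is not read as lacking a p53 site.
CDKN1A promoter region: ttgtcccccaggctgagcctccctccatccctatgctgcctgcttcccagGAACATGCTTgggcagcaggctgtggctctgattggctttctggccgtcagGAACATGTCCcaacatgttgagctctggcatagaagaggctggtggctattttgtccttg

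Single p53 decamers had no higher share in the shared regions than in the rest. The decamer (its standard form, searched on both strands with no mismatch in the window 150 bp either side of the strongest summit) was present in 36 of 404 shared regions, or 8.91% (exact binomial 95% interval 6.32 to 12.1%, covering counting error only). It was present in 8.92% of regions in 2 lists and in 13.04% of regions in 1 list. Windows of the same length 5 kb to either side held it in 7.46% of cases for the shared regions (764 windows without gaps) and in 13.5% for the regions in 1 list. In a tandem array such windows can fall on other copies of the same unit. Here and for the motifs below they are therefore no independent background. Within the shared regions the share was 16.1% of the 62 in all 5 lists (10 regions), 9.72% of those in 4 lists and 6.06% of those in 3, against 9.32%, 6.93% and 7.26% of the windows 5 kb from each. Among regions of 1 list with a single-copy summit sequence it was 7.60%. A pair of decamers with at most 1 mismatch in each was found in 5.69% of shared regions, in 5.77% of regions in 2 lists and in 21.2% of regions in 1 list, against 5.89%, 8.19% and 21.98% of the windows 5 kb away from each class.

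**Figure D1:**
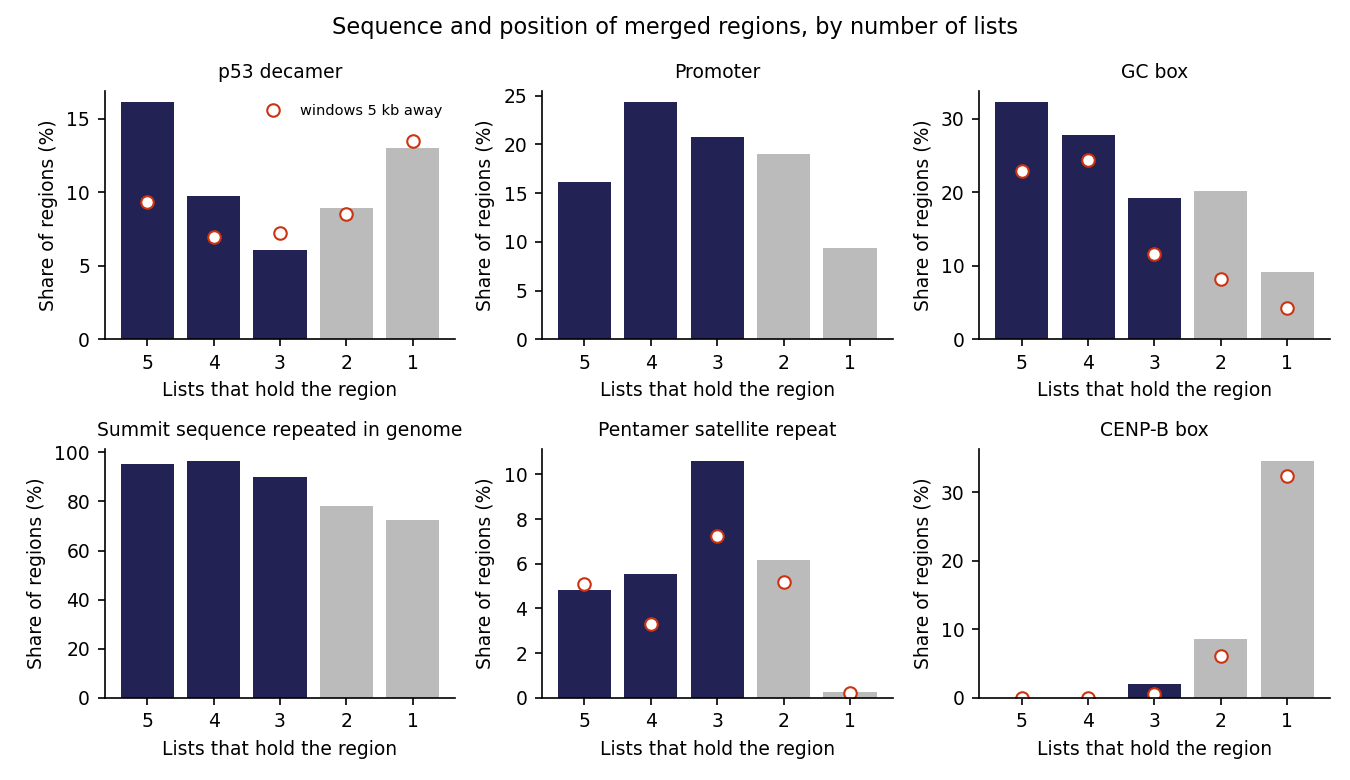
Share of merged regions (y axes, %) with each feature, by the number of lists that hold the region (x axes, 5 on the left to 1 on the right; dark bars are the shared regions, grey bars the rest), with red circles for windows 5 kb away. The decamer share runs from 16.1% for 5 lists to 6.06% for 3 lists and 13.04% for 1 list, while the CENP-B box falls to 0% in 4 and 5 lists, against 34.6% in 1 list.

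Most of the decamers in shared regions were copies of each other. Of the 36 regions, 33 had a repeated summit sequence, and 18 lay in just 5 loci with 3 or more such regions each. In the TAF11L array of chromosome 5 (copies related to the general transcription factor subunit TAF11), 5 of 8 shared regions had the same decamer, GAGCAAGCCC, at 5 copies of the unit. Around LINC00665 and ENSG00000267605 on chromosome 19, AAGCATGTCT recurred in 5 regions of 2 arrays. The decamer AGGCAAGTCC (here on the strand that comes first in the alphabet) was found in 3 regions at the ELOA3 copies of chromosome 18 and in 3 regions of the X chromosome, 1 of them at DANT1. The DANT1 gene flanks DXZ4, a macrosatellite bound by CTCF on the inactive X chromosome. The following stretches (hg38, plus strand, chr5:17525437-17525526 and chrX:115872670-115872759) show such decamers, in capitals, within their units.
TAF11L array: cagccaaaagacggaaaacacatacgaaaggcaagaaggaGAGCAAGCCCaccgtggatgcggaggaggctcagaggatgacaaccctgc
DANT1 array: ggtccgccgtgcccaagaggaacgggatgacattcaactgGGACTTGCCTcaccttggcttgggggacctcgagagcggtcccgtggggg

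The summit sequence itself was repeated in nearly all shared regions. Words of 32 bases around each strongest summit were counted over the reference genome on both strands. The median word occurred more than once in 376 of 404 shared regions (93.1%, exact binomial 95% interval 90.1 to 95.3%), against 78.1% of regions in 2 lists and 72.3% of regions in 1 list. The kind of repeat differed. The median number of copies was 12 in shared regions, 7 in regions of 2 lists and 372.5 in regions of 1 list. Copies within 100 kb of the summit, as in a tandem array, were present in 81.4% of shared regions, in 43.0% of regions in 2 lists and in 53.2% of regions in 1 list. The median GC content of the window was 59.8% in shared regions, 56.5% in 2 lists and 41.2% in 1 list. The CENP-B box, the motif of alphoid satellite DNA at centromeres, was in 4 shared regions (0.990%), against 8.53% of regions in 2 lists and 34.6% of those in 1 list. Most shared regions thus held locally repeated sequence of moderate copy number and high GC content, whereas more of the regions in 1 list held alphoid satellite sequence of very high copy number.

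**Figure D2:**
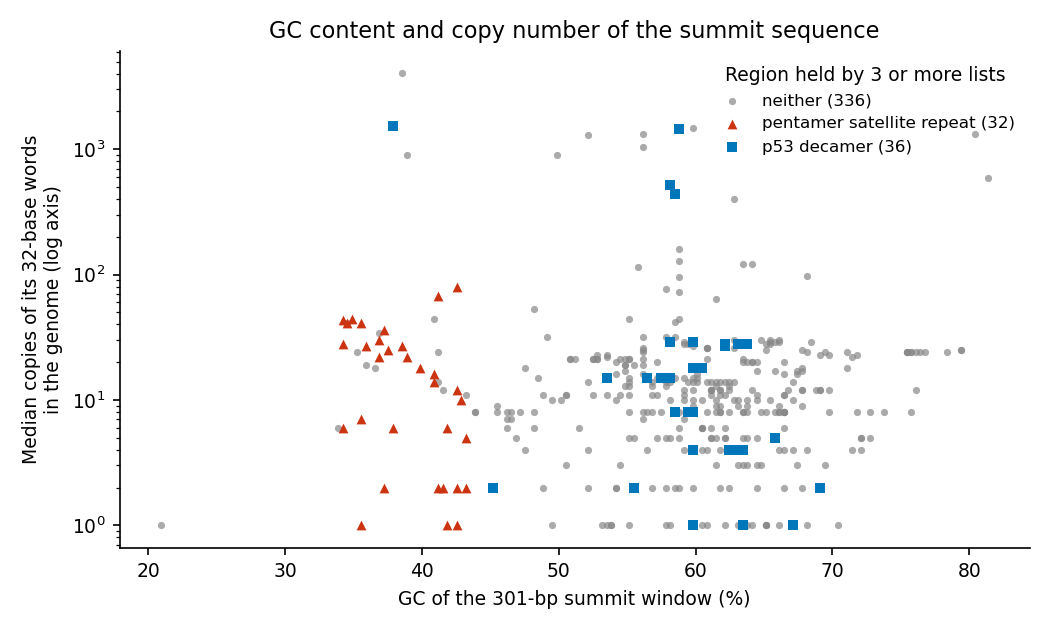
Each of the 404 shared regions by the GC content of its summit window (x axis, %) and the median number of genomic copies of its 32-base words (y axis, log scale), with the 32 pentamer satellite regions as red triangles and the 36 regions with a p53 decamer as blue squares. The satellite regions sit below 50% GC, and 33 of the 36 decamer regions have a repeated summit sequence.

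The shared regions gathered in few places. Regions within 100 kb of one another formed 148 loci, and 19 loci with 6 or more regions held 218 of the 404 (54.0%). By sequence, 255 shared regions had at least 27 of their 32-base words in common with another one, and 17 sequence families of 5 or more held 152 regions, the largest 22. Chromosomes 1, 4, 5 and 19 held 60, 55, 40 and 40 shared regions. The REXO1L array of chromosome 8 (pseudogene copies related to an RNA exonuclease gene) was the largest locus, with 25 regions from 85642743 to 85828650, of which 12 were in all 5 lists. R273H held all 25 and WTOE 24, with fold enrichments of up to 12.7 and 4.57.

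Ribosomal, transfer and spliceosomal RNA genes were among these loci. The 45S rDNA units on chromosome 21 had 25 shared regions in 2 stretches, from 8202252 to 8260944 (10 regions) and from 8385117 to 8472331 (15 regions), with repeats 44209 and 44187 bp apart. R273H, Y234C and WTOE held every one of them, Y220C 23 and R273C 9, with fold enrichments of 6.40 to 12.5 in R273H and 2.05 to 3.69 in WTOE. The 5S array of chromosome 1 (RNA5S1 to RNA5S17, unit of 2241 bp) formed 1 region of 38337 bp, the widest of all. Its fold enrichment was 4.06 in Y220C, 2.45 in R273C, 16.4 in R273H, 5.27 in Y234C and 4.34 in WTOE. A separate region of 1946 bp at the 5S pseudogene RNA5SP162, in the same locus, had 3.88 in Y220C, 17.2 in R273H, 4.15 in Y234C and 3.30 in WTOE and was not in the R273C list. A cluster of 20 tRNA genes on chromosome 1 (161441651 to 161472242, repeats 7381 bp apart) had 10 regions, and the U2 snRNA array of chromosome 17 (43231513 to 43323814, repeats 6161 bp apart) had 14. A further 14 regions lay among SNAR small RNA genes of chromosome 19, in loci of 9 and 5 regions. In total 9 shared regions (2.23%) overlapped a tRNA gene and 10 (2.48%) a GENCODE rRNA gene or pseudogene or its promoter. In regions of 1 list these shares were 0.00638% and 0.0223%. The GENCODE set does not take in every region of the 45S units above. Overlap was taken over the whole span, and shared regions were wider, with a median of 1488.5 bp against 408 bp in 1 list. None of the shared regions lay at a replication histone gene (70 genes) or at 20 abundant housekeeping genes. These genes had 8 and 3 of the regions in 1 list (0.0255% and 0.00958%), and here too nothing is read from the 0.

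The DUX4-like genes of the D4Z4 arrays made up another 25 regions, 13 on chromosome 10 (133664497 to 133758138) and 12 on chromosome 4 (190021709 to 190093150). DUX4 itself is a germline and early embryo transcription factor that is silenced in most adult tissues. The spacing of the repeats was 3310 and 3293 bp, the length of the D4Z4 unit. R273H and Y234C held all 25, WTOE 23 and Y220C 20, whereas R273C held 4. Fold enrichments on chromosome 10 were 8.44 to 16.6 in R273H and 2.53 to 4.61 in WTOE. The summit sequence of the one chromosome 10 region in all 5 lists (hg38, plus strand, chr10:133674706-133674855) is given with its best match in the array of chromosome 4 (chr4:190082075-190082224), to show how alike the copies are. Of 150 bases, 149 were identical. Capitals mark the GC box (GGGCGG, on either strand).
Chromosome 10: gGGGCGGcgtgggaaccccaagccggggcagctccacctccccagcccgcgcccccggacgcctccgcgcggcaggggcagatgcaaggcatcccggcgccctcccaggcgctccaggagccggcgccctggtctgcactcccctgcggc
Chromosome 4: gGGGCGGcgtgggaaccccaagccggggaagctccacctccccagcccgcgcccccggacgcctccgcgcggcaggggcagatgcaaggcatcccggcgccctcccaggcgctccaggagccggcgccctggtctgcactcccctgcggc

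Genes outside the p53 target list filled most of the other large loci. USP17L copies on chromosome 4 (deubiquitinating enzymes, repeats 4745 bp apart) had 13 regions, 8 of them in R273C and 2 in Y234C. TAF11L copies on chromosome 5 had 8, of which 5 were in all 5 lists, and TTC34 on chromosome 1 had 10. ELOA3 copies (elongin A, which aids RNA polymerase II elongation) and GAGE copies (cancer-testis antigens) had 6 each. The lists did not hold these loci alike. R273C held none of the 11 regions around LINC00665, none of the 14 at SNAR and none of the 6 at GAGE.

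**Figure D3:**
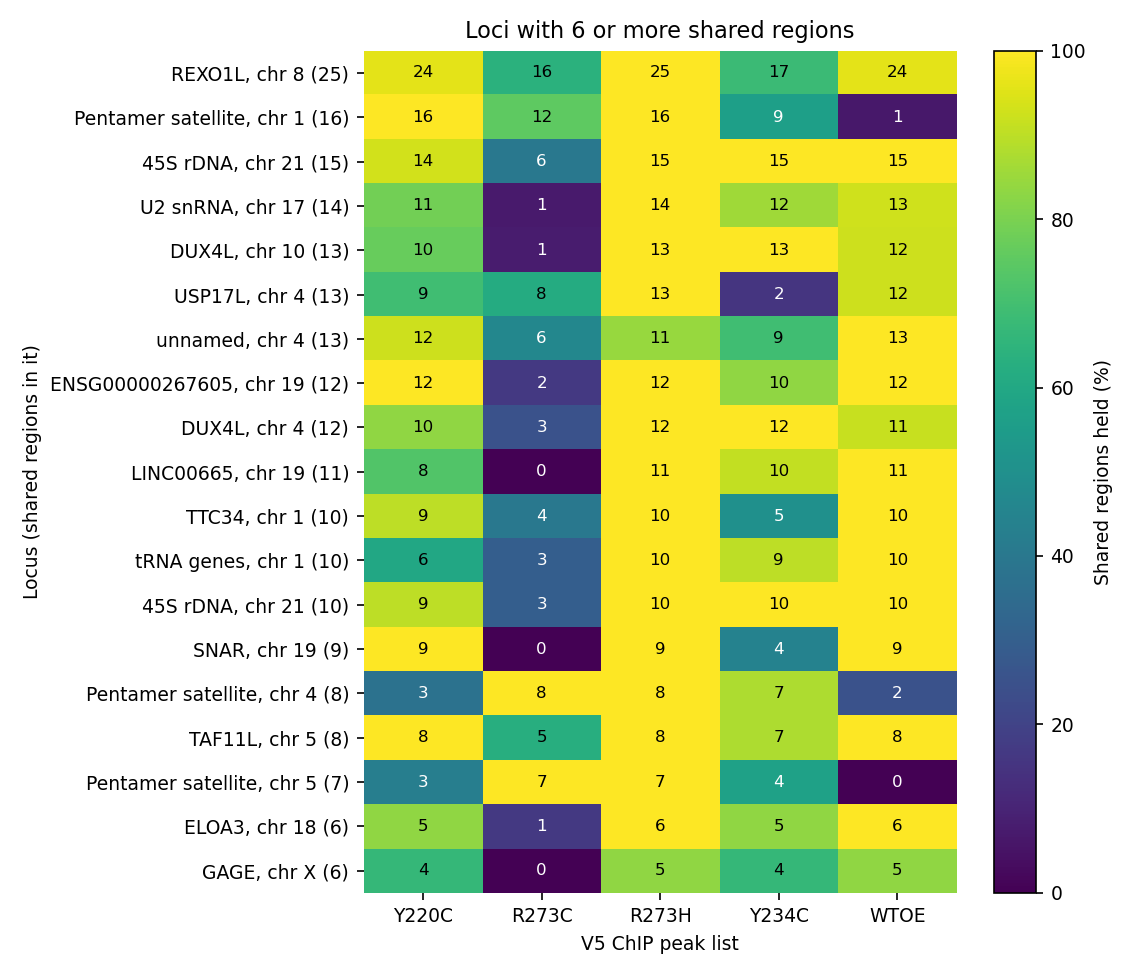
Number of shared regions held by each list (columns) in the 19 loci with 6 or more of them (rows, with chromosome and total in brackets); colour gives the share of the locus's regions held. WTOE holds 1 of 16, 2 of 8 and 0 of 7 regions in the loci labelled pentamer satellite on chromosomes 1, 4 and 5, where R273C holds 12, 8 and 7. The GGAAT repeat is in 14, 8 and 4 of the regions of these loci, and the 1 that WTOE holds on chromosome 1 is without it.

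One class of shared regions set WTOE and R273C apart from the other lists. Runs of at least 2 GGAAT units in a row, the unit of a pericentromeric satellite, were present in 32 shared regions (7.92%), in 6.17% of regions in 2 lists and in 0.268% of regions in 1 list, and in 5.50%, 5.17% and 0.227% of the windows 5 kb from each. Of these 32 regions, R273H held 32, R273C 29, Y220C 24, Y234C 21 and WTOE 4. Of the 372 shared regions without the repeat, R273H held 345, R273C 94, Y220C 296, Y234C 290 and WTOE 345. Because the lists chose the members, these counts describe the choice. The enrichments in the satellite were low, with medians of 1.41 in Y220C, 1.56 in R273C, 3.55 in R273H, 1.33 in Y234C and 1.28 in WTOE, against 3.34, 2.67, 6.78, 3.81 and 3.30 in the other shared regions in the same order. Of the 32, 26 lay in 3 loci, namely 143184839 to 143353595 on chromosome 1, 49102302 to 49154964 on chromosome 4 and 49601231 to 49667221 on chromosome 5. The share of shared regions with a satellite motif (this repeat or the CENP-B box) was 8.91%. It was 14.5% without the WTOE list, 3.81% without R273C, 3.97% without R273H, and 0.656% once crowded 1 Mb bins with 50 or more regions of a list were left out. The following stretches (hg38, plus strand, chr1:143274018-143274167 and chr4:49153416-49153565) come from 2 of these loci, with the repeat, on either strand, in capitals.
Chromosome 1 satellite: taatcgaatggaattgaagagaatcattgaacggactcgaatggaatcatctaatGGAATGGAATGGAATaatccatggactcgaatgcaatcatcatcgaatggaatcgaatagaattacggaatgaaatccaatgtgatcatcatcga
Chromosome 4 satellite: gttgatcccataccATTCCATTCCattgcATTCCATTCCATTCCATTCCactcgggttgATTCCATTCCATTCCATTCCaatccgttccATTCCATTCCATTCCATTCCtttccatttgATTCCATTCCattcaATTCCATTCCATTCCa

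The heights of the shared regions varied both between lists and, within each list, between regions. Over the regions each list held, the highest fold enrichment had a median of 3.29 in Y220C (range 1.07 to 6.93), 2.40 in R273C (1.15 to 6.16), 6.40 in R273H (1.63 to 19.6), 3.72 in Y234C (1.11 to 8.07) and 3.30 in WTOE (1.20 to 9.66). Among the 62 regions of all 5 lists, R273H was the highest list in 59 and R273C the lowest in 44. The part of library depth in this was not tested, since neither the lists nor the methods tie a read total to a list. The longest lists contributed the smallest part of themselves. Shared regions took up 37.0% of the 1160 distinct regions of Y220C, 49.1% of the 350 of R273C, 1.87% of the 21530 of R273H, 29.5% of the 1551 of Y234C and 4.75% of the 10228 of WTOE. Of the 20 regions of lowest q in each list, 20 were shared in Y220C, Y234C and WTOE, 13 in R273H and 11 in R273C.

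**Figure D4:**
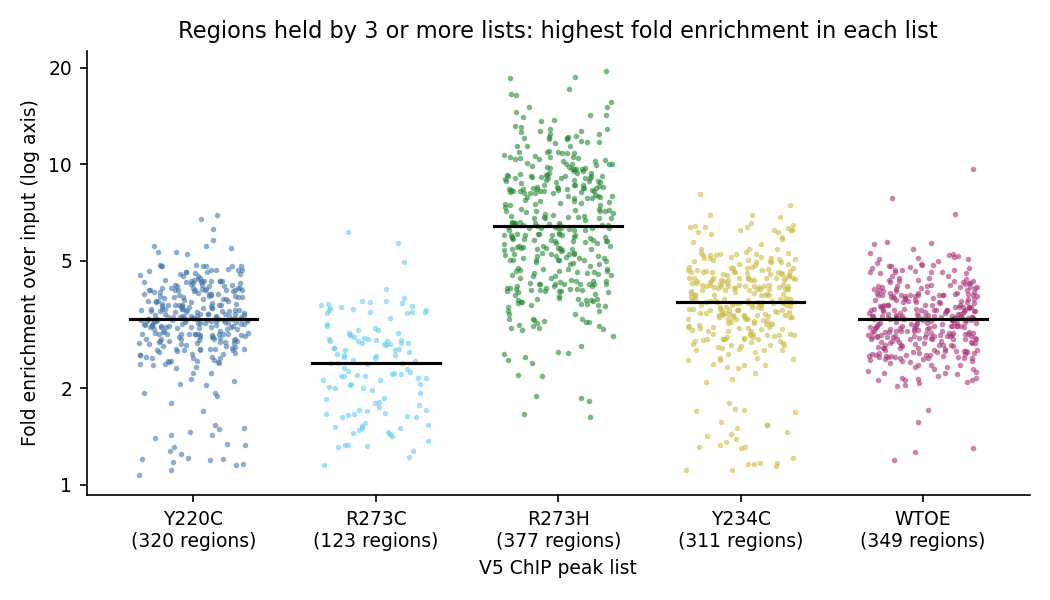
Highest fold enrichment over input (y axis, log scale) of each shared region in each list that holds it (x axis, 1 library per line, number of regions in brackets), with the median as a black line. R273H has a median of 6.40, above the medians of 2.40 to 3.72 in the other lists.

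The strongest shared region in any list was a short tandem repeat. chr4:181239205-181241763, in all 5 lists and at -1964 bp (upstream) from the start of the pseudogene ENSG00000248770, had fold enrichments of 3.49 in Y220C, 2.78 in R273C, 19.6 in R273H, 3.74 in Y234C and 4.47 in WTOE. Its summit window is made of a unit of 51 bp repeated head to tail, and the window's words had a median of 44 copies in the genome. The stretch shown (hg38, plus strand, chr4:181239453-181239605) holds 3 successive units, with the middle one in capitals, and no p53 decamer.
Tandem unit: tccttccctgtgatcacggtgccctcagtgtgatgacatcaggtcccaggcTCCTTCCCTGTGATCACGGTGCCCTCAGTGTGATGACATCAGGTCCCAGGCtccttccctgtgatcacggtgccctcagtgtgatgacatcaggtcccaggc

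Regions that were high in every list were also in arrays. Ranked by their lowest enrichment over the 5 lists, the first was chr4:49315981-49317178, next to the centromere and with no gene in its span. It had 6.93 in Y220C, 4.07 in R273C, 11.98 in R273H, 5.30 in Y234C and 4.57 in WTOE. A second region of the same locus, chr4:49291540-49292539, had 4.16, 3.57, 8.23, 3.93 and 4.93 in the same order. Of the first 8, 3 lay at REXO1L copies, where REXO1L11P (chr8:85732850-85737964) had 4.67 in Y220C, 3.74 in R273C, 9.36 in R273H, 5.11 in Y234C and 4.57 in WTOE. The remaining 3 were at TTC34 (chr1:2652200-2656455), at DUX4L5 (chr4:190077635-190079373) and within introns of DANT1, in a span also annotated as DANT2 (chrX:115843417-115853349), with 8.35, 9.30 and 10.1 in R273H. None of the 8 was single copy, with medians of 2 to 23 copies, and 1 of them, at REXO1L10P, had a p53 decamer.

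**Figure D5:**
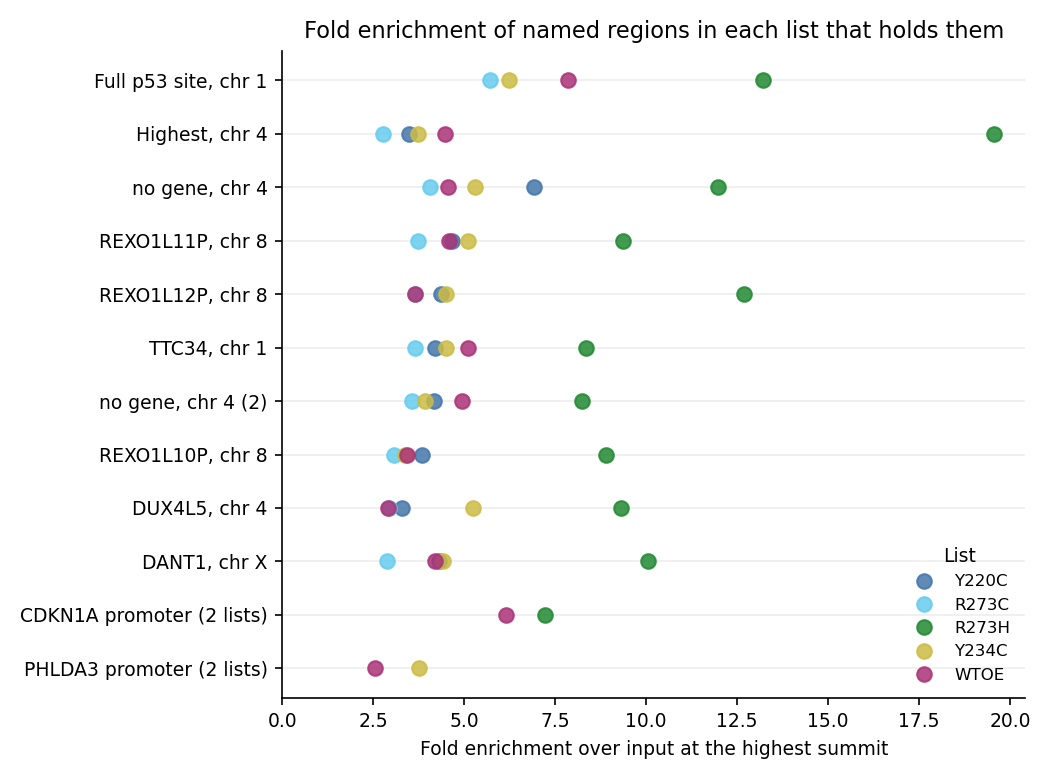
Fold enrichment over input (x axis) in each list that holds the region (coloured points, 1 library each) for the member with the full p53 site, the strongest member, the 8 members ranked highest by their lowest enrichment, and 2 target promoters held by 2 lists. The region with the full site stands at 5.70 to 13.2 and has no Y220C point, and R273H is the rightmost point in every row but the last.

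Within a shared region the summits of different lists were compared in 2 ways. Over 2078 pairs of lists and regions, the strongest summits of the lists were a median of 222.5 bp apart, and the nearest summits a median of 52 bp apart, with 77.7% within 150 bp. The nearest distance is the smallest over all summits that the lists have in the region, so regions with several summits make it small by construction. It ranged from a median of 42.5 bp between Y234C and WTOE to 64 bp between R273C and Y234C. Against WTOE the mutant lists gave 42.5 to 63 bp, and against each other 46 to 64 bp. The shared regions were also wide, with a median of 1488.5 bp against 679 bp in 2 lists and 408 bp in 1 list.

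At the edge of the rule, regions of exactly 3 lists and of exactly 2 lists differed in their repeats, with words repeated within 100 kb in 74.7% and 43.0% of regions and the CENP-B box in 2.02% and 8.53%. The regions with the best q on either side of it were nonetheless satellite or rDNA. Just inside it, the regions of exactly 3 lists with the best lowest q were chr1:143246831-143247425 and chr1:143272731-143274363 in the GGAAT satellite (both in Y220C, R273C and R273H) and chr21:8214933-8216806 in the rDNA (R273H, Y234C and WTOE). The fold enrichments of the first were 1.699, 1.33 and 2.19, at -log10 q of 109, 33.1 and 70.1. So a region could pass at a very low q with a small excess over input. Just outside it, the first 3 regions of exactly 2 lists, chr4:49139390-49140037, chr4:49122279-49123944 and chr4:49118483-49121190, were all in R273C and R273H and all within the chromosome 4 satellite locus. Their fold enrichments were 1.701 to 2.39 in R273C and 3.10 to 6.31 in R273H.

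The summits of 174 shared regions lay in introns, 152 between genes, 57 in exons without coding sequence, 21 in coding exons and none in an annotated UTR. Promoters, taken to reach from 2500 bp before a start to 100 bp past it, held 86 of 404 (21.3%, exact binomial 95% interval 17.4 to 25.6%), against 19.0% of regions in 2 lists and 9.38% of those in 1 list. The GC box was in 24.3% of shared regions, 20.2% of those in 2 lists and 9.21% of those in 1 list, and in 17.9%, 8.19% and 4.22% of the windows 5 kb away. The shares of the other motifs were, for shared regions, 2 lists and 1 list, 2.97%, 4.33% and 3.93% for the AP-1 site (TGANTCA), 22.3%, 20.5% and 20.0% for the CCAAT box (CCAAT), 5.45%, 6.04% and 3.80% for the E-box (CACGTG) and 18.1%, 18.5% and 23.6% for the TEAD motif (GGAATG, which overlaps the GGAAT repeat). The ETS motif (CCGGAAG) was in 2.97%, 2.62% and 1.25%, the NRF1 motif in 0.743%, 0.525% and 0.121%, and the CTCF core in 0%, 0.394% and 0.204%. In the windows 5 kb from the shared regions these shares were 6.02% for AP-1, 29.7% for CCAAT, 5.63% for the E-box, 17.3% for TEAD, 2.75% for ETS, 0.785% for NRF1 and 0.131% for CTCF.

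Among promoters of protein-coding genes, the 8 ranked first by number of lists and mean enrichment all lay at genes outside the p53 target list, several of them array copies. TAF11L3 (chr5:17517670-17519198) was in all 5 lists, at 2.41 in Y220C, 2.57 in R273C, 5.92 in R273H, 2.45 in Y234C and 3.22 in WTOE. TAF11L4 and CCDC200, the gene beside the U2 array, were in every list but R273C, at 6.54 and 3.59 in R273H and at 2.93 and 3.36 in WTOE. CCDC200 was highest in Y234C, at 5.45. PLCXD1, CHMP1A and PRR20D were in R273H, Y234C and WTOE, at 9.16, 6.88 and 5.17 in R273H and at 4.62, 3.08 and 4.14 in WTOE. USP17L20 was in R273C, R273H and WTOE, at 3.44, 6.23 and 3.64. MUC6 completed the set, and none of the 8 held a p53 decamer.

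A minority of 28 shared regions had a summit sequence found once in the genome, though 3 of them (10.7%) held the GGAAT repeat and 10 (35.7%) lay in crowded bins. They included coding exons of IGFN1 (a muscle protein), OR2W3 (an olfactory receptor) and the mucins MUC6 and MUC3A, the CDK18 promoter and introns of STK10 and TBC1D9B. MUC6 (chr11:1016649-1018000) was in all 5 lists with a narrow range, at 2.86 in Y220C, 2.76 in R273C, 3.84 in R273H, 2.73 in Y234C and 2.81 in WTOE. A p53 decamer was in 3 of the 28 (10.7%) and in 7.60% of the single-copy regions of 1 list, and promoters held 9 of them (32.1%) against 21.5%. The full site described above was 1 of the 3.

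RNA could be set beside few of these regions. Besides the lines with a peak list and parental WT, RNA was measured in WTKD and in further mutant lines. WTKD is a control line in which p53 was knocked down with shRNA. The further mutants were R175H, H179R, G245S, Y163C, R248Q and R248W. These lines have no peak list, but they are part of the ranges over all lines below. The 86 promoter regions lay at 83 genes, of which 22 are protein-coding, and 80 of them were in the RNA table of 13 lines (1 library each, log2 of TPM plus 1). Of these, 67 were listed at 0 in all 13 lines, among them the DUX4-like and U2 copies. The filter of at least 1 in at least 3 lines was passed by 8 (10% against 25.5% of all genes). Many of these genes are copies in arrays, and how the RNA counts treated reads that fit several copies was not examined here. The zeros and the low share are therefore not read as absence of RNA. Of the epithelial markers, KRT5 was at 9.97 to 11.9 over the 13 lines, KRT6A at 9.02 to 10.98 and EGFR at 7.13 to 8.67. LAMB3 was at 5.08 to 8.74 and ITGB4 at 4.51 to 7.76, both lowest in R273H. In contrast, CDH1 was at 0.25 in R273H against 6.23 in WT, and TP63 was listed at 0 in R273C and R273H against 4.80 in WT. KRT14 ran from 0 in R273H to 8.23 over the 13 lines, with 1.04 in WT and 7.41 in the library labelled WTOE. The part of these differences in the RNA values below was not tested. The RNA of other cell types was low, with the blood, liver, muscle and neuron markers PTPRC, ALB, MYH7 and SNAP25 at 0, while PECAM1, an endothelial marker, reached 1.80 in 1 line.

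The genes that could be followed showed no shared direction. ARF1, a small GTPase of the Golgi, was the most abundant, at 10.4 in Y220C, 11.1 in R273C, 11.03 in R273H, 12.1 in Y234C and 10.6 in the library labelled WTOE, against 10.9 in WT. STK10, a kinase of lymphocytes and epithelia that phosphorylates ERM proteins, was at 3.99, 4.59, 4.82, 4.43 and 4.43 in the same order, against 4.47 in WT. CHMP1A, a subunit of the ESCRT-III membrane machinery, was at 4.29, 5.94, 4.10, 5.63 and 4.21, against 5.36 in WT. These genes had their region in R273H, Y234C and WTOE, and their RNA in those lines lay above WT in some and below it in others. PLCXD1, a phospholipase-like gene of the pseudoautosomal region, varied more, at 1.02 in Y220C, 1.74 in R273C, 3.90 in R273H, 4.34 in Y234C and 0 in the library labelled WTOE, against 2.95 in WT. TBC1D32, which acts in cilium formation, was at 0.32, 1.20, 3.88, 0 and 0.81 in the same order, against 1.63 in WT. CDK18, with its region in Y220C, Y234C and WTOE, was at 3.12, 4.33, 3.40, 1.90 and 3.20, against 2.70 in WT. ANKRD18B, with its region in R273H, Y234C and WTOE, was at 3.39, 2.34, 2.27, 0 and 3.79, against 2.89 in WT. The rDNA transcript ENSG00000281383 was listed at 0 in WT, with 2.74 in Y220C, 3.68 in R273C, 1.60 in R273H, 1.69 in Y234C and 1.49 in the library labelled WTOE. It was thus the one of the 8 above WT in all 5 lines. Of the 8 genes, 4 differed from WT by more than 1 on the log2 scale in Y220C (45.5% of all 14884 genes tested), 3 of them downward (17.9%). In R273C 3 did (39.3%), 1 of them downward (12.7%), and in R273H 3 did (48.6%), 1 of them downward (33.8%). In Y234C 5 did (53.1%), 2 of them downward (40.1%), and in the library labelled WTOE 3 did (38.4%), 2 of them downward (18.0%). With 1 library per line there was no test, and these counts of 8 genes are read against those shares only as a description. For the RNA libraries the authors report high read duplication, and a large and variable mitochondrial share that they removed before computing TPM. The part of either in the low values and zeros, as in PLCXD1 and TBC1D32, was not tested.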

How the data were processed

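Chromatin of 5 lines was precipitated with a V5 antibody and sequenced in pairs, with 1 library per line. The authors aligned reads with Bowtie2 2.1.0 and SAMtools 1.7 to hg38. Peaks were theirs too, from MACS2 2.1.2.20181017 with input of the same line as control and a q threshold of 0.05, as the submitters' processing notes and methods give it. The deposited score, the deposited fold enrichment (a ratio to input at the summit) and the deposited -log10 p and q come from MACS2, which lists a region once per summit. Their command reports 1 alignment per read, and non-primary alignments were discarded, so a read that fits several copies of a repeat was kept at 1 of them. The authors deposited RNA as log2 of TPM plus 1 (STAR, GRCh38). Neither kind of file gives read counts. The methods state ChIP read totals and duplication rates only as ranges over libraries, so the depth behind each list was not used here.

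Rows on chromosomes 1 to 22 and X were reduced to distinct regions and merged. Sequence (GRCh38) was read 150 bp either side of the summit of highest fold enrichment. The genome was searched with 9 words of 32 bases per summit over 193 contigs, without alternate contigs and the mitochondrial genome. Genes came from GENCODE 44 (252835 transcripts), and tRNA, rRNA and SNAR genes from RefSeq. The spacing of repeats is the commonest distance, up to 50000 bp, between successive copies of a word. Named regions were ranked by fixed rules: the 8 of all 5 lists with the highest lowest enrichment, those with a full p53 site at the WTOE summit, those at p53 targets, the first 8 promoters of coding genes by number of lists and mean enrichment, and 3 on each side of the threshold. Other regions named were chosen after their values were seen. Members, gene lists and rules were chosen with earlier results of these data known. Merging and motif search were tested on simulated data. Python 3.11.15, numpy 2.4.6, pandas 2.3.3, scipy 1.17.1, pysam 0.24.0, numba 0.67.0, matplotlib 3.10.9 and samtools 1.23.1 were used. Some items are not reported here.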

Additional observations from a re-analysis of the deposited data

Results flagged for a closer look

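Scaffolds outside chromosomes 1 to 22 and X were not part of the rule. They held 455 merged regions, of which 92 (20.2%) were in 3 or more lists, against 1.24% on the chromosomes. Of the 92, Y220C held 73, R273C 53, R273H 85, Y234C 84 and WTOE 82. They were singled out because they lie outside the regions described above. Their sequences were not analysed here.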

How the results depend on the processing

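The number of shared regions was 601 when summits within 150 bp were joined, 156 at a -log10 q of at least 5, and 148 with 1 region per locus (an alternative chosen after seeing the data), and it ranged from 249 to 367 with 1 list left out, the lowest being without WTOE. The share with a p53 decamer was 3.22% within 50 bp of the summit and 7.58 to 10.5% with 1 list left out. The share with a full p53 site was 5.69% with at most 1 mismatch in each decamer and 0.272 to 0.402% with 1 list left out. The share at promoters was 16.2% with 1 region per locus and 18.5 to 26.7% with 1 list left out. The share with a satellite motif was 5.34% with 4 lists required, 6.08% with 1 region per locus, 0.656% without crowded bins and 3.81 to 14.5% with 1 list left out. The share with a repeated summit sequence was 98.1% at a -log10 q of at least 5, 96.1% with 4 lists required, 58.9% for words found 10 times or more, 81.4% for words repeated within 100 kb (chosen after seeing the data), 83.1% with 1 region per locus and 92.6 to 96.4% with 1 list left out. The cause of these moves was not tested, apart from the smaller number of regions that a stricter threshold or 1 region per locus leaves by construction. Without the filter on low values the median RNA level of promoter genes was 0, against 2.85 with it, and genes lower than WT numbered 2 in R273C and 2 in R273H, against 1 in each with it. No paired analysis was possible because each line has 1 library per assay and no replicate number pairs lines.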
